A study of Mus musculus with 14 samples.

Results

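The enzymes and cofactors that set, read and remove DNA methylation were described as 9 genes, Dnmt1, Uhrf1, Uhrf2, Dnmt3a, Dnmt3b, Tet1, Tet2, Tet3 and Mbd3, of 53700 genes in the deposited tables. They were taken by name, with earlier results of these data known, and all 9 passed the filter on low counts in both comparisons. On GRCm39, the build of the deposited coordinates, the genes lie at chr9:20818505-20871184 (Dnmt1), chr17:56610321-56630486 (Uhrf1), chr19:30007913-30071122 (Uhrf2), chr12:3856007-3964443 (Dnmt3a), chr2:153491370-153529650 (Dnmt3b), chr10:62640349-62744775 (Tet1), chr3:133169440-133250900 (Tet2), chr6:83339355-83436066 (Tet3) and chr10:80228373-80235384 (Mbd3). Messenger RNA was measured by poly-A RNA sequencing in 14 libraries of neural stem and progenitor cells (NSPCs) from adult C57BL/6 mice. Quiescent cells were given BMP4 (n = 4) and proliferating cells FGF and EGF (n = 4). A second table held GFP control cells, which received a GFP adeno-associated virus in FGF and EGF (n = 3), and Yme1l KO cells, which received a Cre-GFP adeno-associated virus in FGF and EGF (n = 3). The labels of the KO libraries, like all others, name a wild-type mouse, and they give no age and no floxed allele. They do not say whether the replicates of a group were separate animals or cultures, so the p-values compare libraries whose spread may be technical only.

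Methylation of cytosine in CpG pairs is copied onto the new DNA strand after replication by DNMT1, which UHRF1 recruits to hemimethylated CpG. DNMT3A and DNMT3B place methyl groups on sites that carried none, and the TET enzymes oxidise methylcytosine, the first step of its removal. In adult neural stem cells DNMT3A, TET enzymes and methyl-CpG-binding proteins are known regulators of neurogenesis and self-renewal.

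Library totals ran from 6475092 to 8797741 estimated counts in quiescent, 8331995 to 8992697 in proliferating, 9226070 to 10320727 in GFP control and 9053122 to 9490735 in KO libraries. Yme1l1, the target of the deletion, stood at 135, 124 and 121 CPM (counts over the TMM-scaled library total) in GFP control replicates 1 to 3 and at 25.7, 25.6 and 22.9 CPM in the KO, so that the groups did not overlap. In the separately quantified table without virus, Yme1l1 stood below the KO, at 2.18 to 4.77 CPM in proliferating and 3.91 to 11.1 CPM in quiescent libraries. The reason for this was not tested. Of 12 neural stem and progenitor markers, 11 were above 1 TPM (a level per transcript length) in each of the 4 groups. The astrocyte list summed to 4195 to 4428 TPM in quiescent and 2797 to 2922 TPM in proliferating libraries. In GFP control libraries it summed to 448 to 474 TPM and in KO libraries to 445 to 471 TPM. Of its 7 genes tested by edgeR, 5 were higher and 1, Aldh1l1, lower in quiescence at an adjusted p under 0.05. Of all genes tested, 29.9% were higher and 35.5% lower. The microglial markers C1qa, C1qb, C1qc, Cx3cr1 and Ptprc had no count in any group. Quiescent replicate 2 stood apart from the other quiescent libraries by GC content: across 12230 genes its deviation from the group mean correlated with GC at r = -0.577, against 0.185 to 0.347 for the others. In these bulk samples, fewer cells of a type and less RNA per cell cannot be told apart.

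The starts of Uhrf1 and Dnmt1, which fell most with quiescence, and of Dnmt3a, which was called higher there, are shown for their cell cycle motifs. RefSeq promoters on GRCm38.p6 were held for all 9 genes, in 14 windows of 300 bases from 250 bases before to 50 after a start. They were searched on both strands for the E2F words TTTCCCGC, TTTCGCGC, TTTGCCGC and TTTGGCGC, the CHR words TTTGAA and TTCGAA, and CCAAT. No match of one motif overlapped a match of another motif in these 14 windows. An E2F word was present in 2 of the 14 windows, from 2 of the 9 genes, Uhrf1 and Dnmt1, and in 2.265% of 32851 windows of all genes. A CHR word lay in windows of 2 genes, Dnmt1 and Dnmt3b (19.23% of all windows), and CCAAT in windows of 4 genes, Dnmt1, Uhrf1, Tet3 and Mbd3 (37.41% of all windows). The CHR and CCAAT counts are of genes, some with several windows, so they are not of one kind with the shares of windows. The 250 bases upstream of the downstream Uhrf1 start (chr17:56304063-56304312, plus strand, intronic to transcript Uhrf1-201), of the start of transcript Dnmt1-201 (chr9:20952980-20953229, minus strand) and of the first Dnmt3a start (chr12:3806730-3806979, plus strand) read as follows, with E2F words in capitals.
Uhrf1: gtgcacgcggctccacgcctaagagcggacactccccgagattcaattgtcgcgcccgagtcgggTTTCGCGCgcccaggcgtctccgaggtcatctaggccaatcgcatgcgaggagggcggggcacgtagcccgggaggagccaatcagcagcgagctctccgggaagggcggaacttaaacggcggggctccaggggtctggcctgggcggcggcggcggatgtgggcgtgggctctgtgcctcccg
Dnmt1: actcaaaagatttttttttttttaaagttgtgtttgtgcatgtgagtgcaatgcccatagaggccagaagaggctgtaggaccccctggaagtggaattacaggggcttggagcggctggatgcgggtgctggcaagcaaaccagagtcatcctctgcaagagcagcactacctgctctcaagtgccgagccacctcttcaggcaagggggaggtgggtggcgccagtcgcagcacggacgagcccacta
Dnmt3a: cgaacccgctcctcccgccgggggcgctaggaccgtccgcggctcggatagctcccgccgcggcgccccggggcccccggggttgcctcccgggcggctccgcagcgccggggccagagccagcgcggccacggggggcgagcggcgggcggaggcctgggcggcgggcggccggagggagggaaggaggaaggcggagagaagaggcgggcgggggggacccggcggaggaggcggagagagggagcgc
The capitals in Uhrf1 begin 185 bases before the start, and CCAAT lies 150 and 107 bases before it. The Dnmt1 and Dnmt3a stretches hold no E2F word, CHR word or CCAAT. The E2F words of Dnmt1 lie downstream of the Dnmt1-201 start, around a further RefSeq start, and are given with flanking bases, minus strand, words in capitals. The first (chr9:20952824-20952853) lies in an exon of Dnmt1-201 and the second (chr9:20952574-20952601) in an exon of Dnmt1-203.
Dnmt1 first: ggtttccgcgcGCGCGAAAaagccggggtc
Dnmt1 second: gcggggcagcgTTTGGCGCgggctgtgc
A match is a description of the letters and was not tested as a binding site.

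Mbd3, which encodes a NuRD complex subunit of the methyl-CpG-binding-domain family with weak affinity for methylated DNA, had the highest level of the 9 in every group. In proliferating cells the order by mean TPM was Mbd3 (347 ± 22.2, SD, n = 4), Uhrf1 (101 ± 5.14), Dnmt1 (79.2 ± 4.29), Tet3 (20.8 ± 0.785), Dnmt3a (14.5 ± 1.12), Uhrf2 (13.03 ± 0.878), Dnmt3b (1.38 ± 0.396), Tet1 (0.421 ± 0.229) and Tet2 (0.311 ± 0.145). Of neighbours in that order, Dnmt3a and Uhrf2 overlapped between libraries, as did Tet1 and Tet2. In quiescent cells Mbd3 (239 ± 6.92 TPM) was followed by Dnmt1 (21.7 ± 1.05), Dnmt3a (17.0 ± 3.15), Uhrf1 (11.9 ± 4.18), Tet3 (7.83 ± 0.500), Uhrf2 (7.75 ± 2.14), Tet2 (1.09 ± 0.925), Dnmt3b (0.965 ± 0.317) and Tet1 (0.270 ± 0.156). Uhrf1 thus stood next after Mbd3 in proliferating cells and below Dnmt1 and Dnmt3a in quiescent cells, where its range overlapped that of Dnmt3a. In GFP control cells the order was Mbd3 (212 ± 3.81 TPM, n = 3), Uhrf1 (128 ± 3.52), Dnmt1 (113 ± 1.67), Uhrf2 (41.4 ± 2.86), Dnmt3a (37.2 ± 3.25), Tet3 (31.0 ± 1.81), Tet1 (11.4 ± 2.50), Tet2 (10.3 ± 0.761) and Dnmt3b (1.77 ± 0.492). In the KO Mbd3 (160.3 ± 5.30 TPM) was followed by Dnmt1 (62.8 ± 12.3), Uhrf1 (60.1 ± 13.8) and Dnmt3a (55.9 ± 4.32), whose ranges overlapped from one to the next, then by Tet3 (30.1 ± 0.949), Uhrf2 (28.7 ± 1.54), Tet2 (12.5 ± 1.03), Tet1 (9.64 ± 3.48) and Dnmt3b (1.298 ± 0.307).

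**Figure D1:**
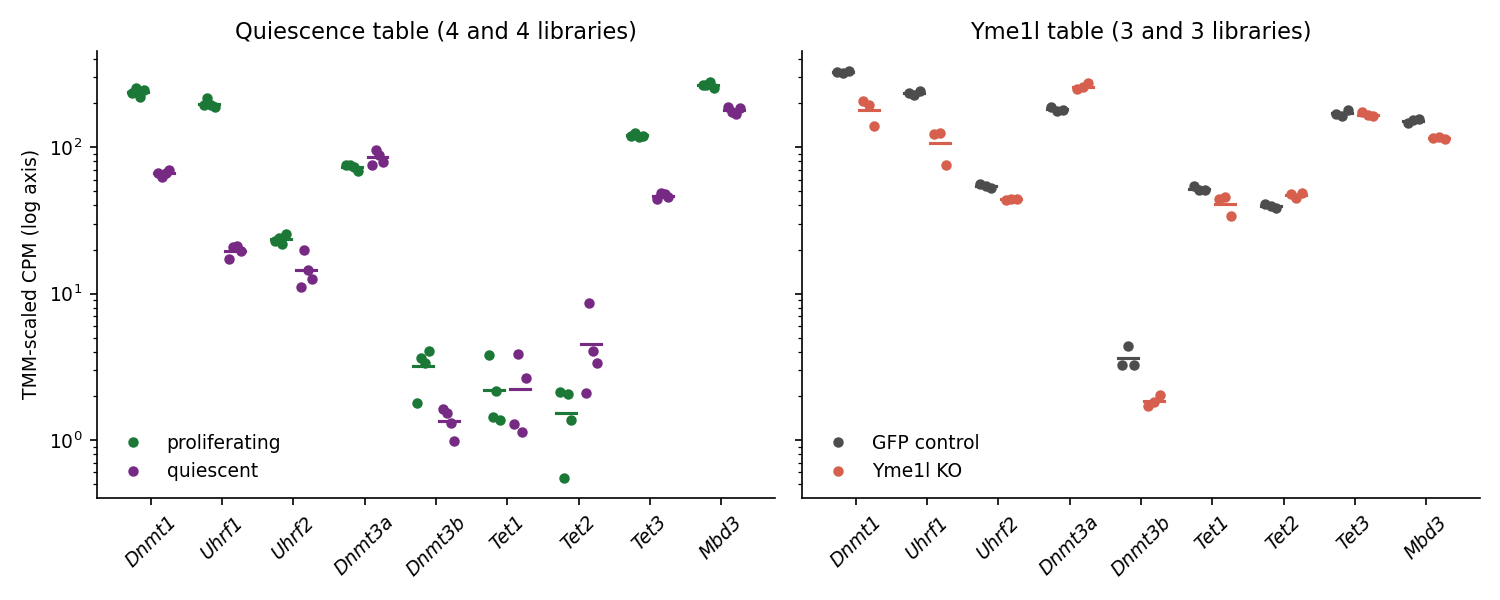
TMM-scaled CPM (log axis) of the 9 genes in each library, with 1 point per library and a bar at the group mean, for the quiescence table at left and the Yme1l table at right. Uhrf1 shows the widest gap between the quiescent and proliferating points, Dnmt3a lies higher in the KO than in the GFP control, and Tet1 and Tet2 lie at 8.64 CPM or less in the left panel and at 33.7 CPM or more in the right.

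Quiescent and proliferating cells were compared to see which of these genes differ between them. The labels name BMP4 for one group and FGF and EGF for the other, so the part of each cannot be told apart. The maintenance pair Uhrf1 and Dnmt1 fell most in log2 fold change, and Tet3, Mbd3, Uhrf2 and Dnmt3b fell as well. Dnmt3a rose slightly, Tet2 rose from a very low level, and Tet1 did not pass. In all, 2 of the 9 genes were called higher and 6 lower (edgeR, adjusted p under 0.05). Among all 12245 genes tested, 65.4% were called (29.9% higher and 35.5% lower). For 6 of the 9 the groups did not overlap, against 59.7% of all genes.

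Uhrf1, the reader of hemimethylated CpG, stood at 194, 218, 196 and 187 CPM in proliferating replicates 1, 2, 4 and 5 and at 17.3, 20.9, 21.0 and 19.4 CPM in quiescent replicates 1 to 4. Every quiescent library lay far below every proliferating one, and the quiescent values rest on 107 to 179 counts. Its change was -3.33 on the log2 scale (SE 0.07, adjusted p = 3.04e-15 by edgeR).

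Dnmt1, the maintenance methyltransferase, stood at 236, 254, 221 and 247 CPM in proliferating and at 66.4, 62.8, 66.9 and 69.5 CPM in quiescent libraries. The groups did not overlap, and the libraries of each group lay close together. Dnmt1 fell by 1.85 on the log2 scale (SE 0.06, adjusted p = 1.25e-13).

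Uhrf2, a UHRF1 paralogue that does not replace it in maintenance, stood at 22.9, 24.0, 21.8 and 25.5 CPM in proliferating and at 11.2, 20.0, 14.5 and 12.6 CPM in quiescent libraries. Quiescent replicate 2 came nearest to the proliferating range, without reaching it. Uhrf2 fell by 0.68 on the log2 scale (SE 0.15, adjusted p = 0.00101).

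Of the de novo enzymes, Dnmt3a stood at 75.3, 76.1, 73.3 and 68.3 CPM in proliferating and at 76.0, 96.0, 88.9 and 79.7 CPM in quiescent libraries. The groups overlapped by quiescent replicate 1, and replicate 2 was highest. Dnmt3a rose by 0.22 on the log2 scale (SE 0.07, adjusted p = 0.0146), a call lost under 5 of 18 alternatives. Among these were leaving out proliferating replicate 5 (0.18, adjusted p = 0.0552), scaling by library total alone (0.08, adjusted p = 0.373), limma on log2(TPM + 1) (0.20, adjusted p = 0.230) and counts scaled from TPM (0.25, adjusted p = 0.127).

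Dnmt3b, the other de novo enzyme, had 17, 33, 31 and 35 counts in proliferating and 10, 13, 8 and 7 counts in quiescent libraries. The groups did not overlap once scaled, at 1.79 to 4.02 against 0.977 to 1.62 CPM. Its log2 fold change of -1.23 (SE 0.32, adjusted p = 0.00345) was a call lost under 3 of 18 alternatives, among them limma on log2(TPM + 1) (-0.27, adjusted p = 0.224) and counts scaled from TPM (-0.45, adjusted p = 0.339), and the authors' deposited table gives an adjusted p of 0.345 for it.

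Among the dioxygenases Tet3 was the most abundant, with 119, 126, 117 and 120.2 CPM in proliferating and 44.5, 48.8, 47.7 and 46.0 CPM in quiescent libraries. The groups were far apart and each was tight. Tet3 fell by 1.37 on the log2 scale (SE 0.06, adjusted p = 4.2e-12).

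Tet2 had 20, 5, 19 and 12 counts in proliferating and 13, 74, 25 and 24 counts in quiescent libraries. Quiescent replicate 2 held 74 of them, and quiescent replicate 1 overlapped the proliferating range. Its rise of 1.59 on the log2 scale (SE 0.48, adjusted p = 0.0118) became 1.13 (adjusted p = 0.0127) without quiescent replicate 2. The call was lost under 2 of 17 alternatives, one of them limma on log2(TPM + 1) (0.59, adjusted p = 0.0717). With counts scaled from TPM, Tet2 did not pass the filter and was not tested.

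Tet1 had 36, 13, 20 and 12 counts in proliferating and 8, 33, 7 and 19 counts in quiescent libraries, and the groups overlapped. Its log2 fold change of 0.07 (SE 0.43, adjusted p = 0.9) did not pass, which does not show that Tet1 was unchanged. It was -0.27 without quiescent replicate 2.

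Mbd3 stood at 266, 266, 281 and 252 CPM in proliferating and at 188, 173, 169.9 and 186 CPM in quiescent libraries. The groups did not overlap. Mbd3 fell by 0.57 on the log2 scale (SE 0.05, adjusted p = 4.66e-08), the smallest of the 6 called falls.

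Loss of YME1L, a mitochondrial inner membrane protease, was compared with the GFP virus in proliferating medium. Uhrf1, Dnmt1 and Dnmt3b fell most, Mbd3, Tet1 and Uhrf2 fell by less, Dnmt3a and Tet2 rose, and Tet3 did not pass. Again 2 of the 9 genes were called higher and 6 lower (edgeR, n = 3 and 3), while 51.6% of 12625 genes tested were called (25.4% higher and 26.2% lower). The groups did not overlap for 8 of the 9 genes, against 61.4% of all genes.

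Uhrf1 stood at 235, 227 and 243 CPM in the GFP control and at 123, 125 and 75.6 CPM in KO replicates 1 to 3. All KO libraries were lower, replicate 3 by the widest margin. Uhrf1 fell by 1.12 on the log2 scale (SE 0.20, adjusted p = 0.00664).

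Dnmt1 stood at 326, 319.6 and 332 CPM in the GFP control and at 205, 195 and 139 CPM in the KO. KO replicate 3 was again lowest and the groups were apart. Dnmt1 fell by 0.86 on the log2 scale (SE 0.14, adjusted p = 0.00266), and without KO replicate 3 the changes were -0.93 for Uhrf1 and -0.70 for Dnmt1.

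Uhrf2 stood at 55.9, 54.1 and 52.6 CPM in the GFP control and at 43.5, 44.4 and 44.5 CPM in the KO, a log2 fold change of -0.30 (SE 0.07, adjusted p = 0.00167). Mbd3 stood at 146, 153 and 156 CPM in the GFP control and at 115, 117 and 114 CPM in the KO, a log2 fold change of -0.40 (SE 0.05, adjusted p = 2.01e-05). In both genes the 3 KO libraries lay close together and below the control range.

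Dnmt3a stood at 188, 177 and 181 CPM in the GFP control and at 249, 256 and 274 CPM in the KO, with every KO library higher. Its rise of 0.51 (SE 0.05, adjusted p = 3.23e-06) was called under every alternative run, unlike its rise in quiescence. Dnmt3b had 32, 41 and 34 counts in the GFP control and 16, 17 and 18 counts in the KO, so that the de novo enzymes moved in opposite directions. The log2 fold change of Dnmt3b was -0.96 (SE 0.26, adjusted p = 0.00559), a call lost under 2 of 16 alternatives, and the authors' deposited table gives an adjusted p of 0.477.

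Tet1 stood at 54.4, 51.1 and 50.9 CPM in the GFP control and at 44.2, 45.4 and 33.7 CPM in the KO (log2 fold change -0.34, SE 0.10, adjusted p = 0.00901). Tet2 stood at 41.2, 39.8 and 38.7 CPM in the GFP control and at 48.0, 45.3 and 48.3 CPM in the KO (log2 fold change 0.24, SE 0.07, adjusted p = 0.00914). Neither pair of groups overlapped, yet each call was lost under 3 of 16 alternatives, and the authors' deposited table calls neither gene (adjusted p = 0.686 and 0.0740). Tet3, at 169, 163 and 179.7 CPM in the GFP control and 174, 166 and 162 CPM in the KO, overlapped and did not pass (-0.03, SE 0.05, adjusted p = 0.657).

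The difference between the KO effect and the quiescence effect was tested in a fit over all 14 libraries, in which 38.9% of 13580 genes were called (21% higher and 18% lower). Tet3 differed by 1.29 (SE 0.08, adjusted p = 7.7e-11): it fell with quiescence and did not pass in the KO. Uhrf1 differed by 2.16 (SE 0.21, adjusted p = 3.08e-06) and Dnmt1 by 0.95 (SE 0.15, adjusted p = 0.000141), their falls being larger in quiescence. Tet2 differed by -1.43 (SE 0.46, adjusted p = 0.0238), its rise being larger in quiescence, where it rests on few counts, and by -0.87 without quiescent replicate 2. This call was lost under 3 of 20 alternatives. Dnmt3a differed by 0.25 (SE 0.09, adjusted p = 0.0396), a call lost under 14 of 20 alternatives. Uhrf2 (0.33, adjusted p = 0.124), Dnmt3b (0.22, adjusted p = 0.711), Mbd3 (0.13, adjusted p = 0.229) and Tet1 (-0.48, adjusted p = 0.412) did not pass, which does not show that their effects were alike.

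**Figure D2:**
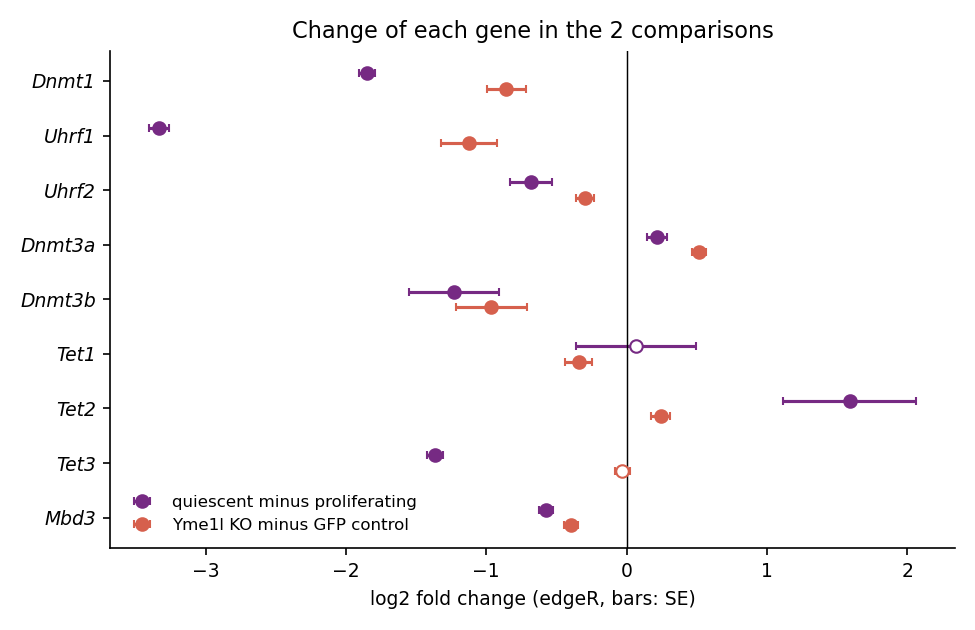
Log2 fold change (edgeR) of the 9 genes, quiescent minus proliferating in purple and Yme1l KO minus GFP control in red, with bars of 1 SE and filled points at an adjusted p under 0.05. Uhrf1 runs from -3.33 to -1.12 between the comparisons, Tet3 is filled only for quiescence (-1.37), and Tet1 only for the KO (-0.34).

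The makeup of each family was read per length, as the share of each paralogue in the summed TPM of its family. Dnmt3a made up 15.3% ± 1.73 (SD, n = 4) of the Dnmt sum in proliferating and 42.6% ± 4.46 in quiescent cells, and 24.4% ± 1.82 (n = 3) in GFP control and 46.9% ± 5.24 in KO cells. The ranges did not overlap in either comparison, and the Dnmt sum itself went from 95.0 ± 3.29 to 39.7 ± 3.72 TPM with quiescence and from 152 ± 2.24 to 120.1 ± 13.9 TPM in the KO. Uhrf1 made up 88.6% ± 0.456 of the Uhrf pair in proliferating and 59.96% ± 8.51 in quiescent cells, and 75.5% ± 0.808 in GFP control and 67.1% ± 6.75 in KO cells. Tet3 made up 96.6% ± 1.62 of the Tet sum in proliferating and 86.2% ± 8.19 in quiescent cells, but 59.0% ± 3.01 in GFP control and 57.7% ± 2.38 in KO cells. These shares are a description without a test.

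**Figure D3:**
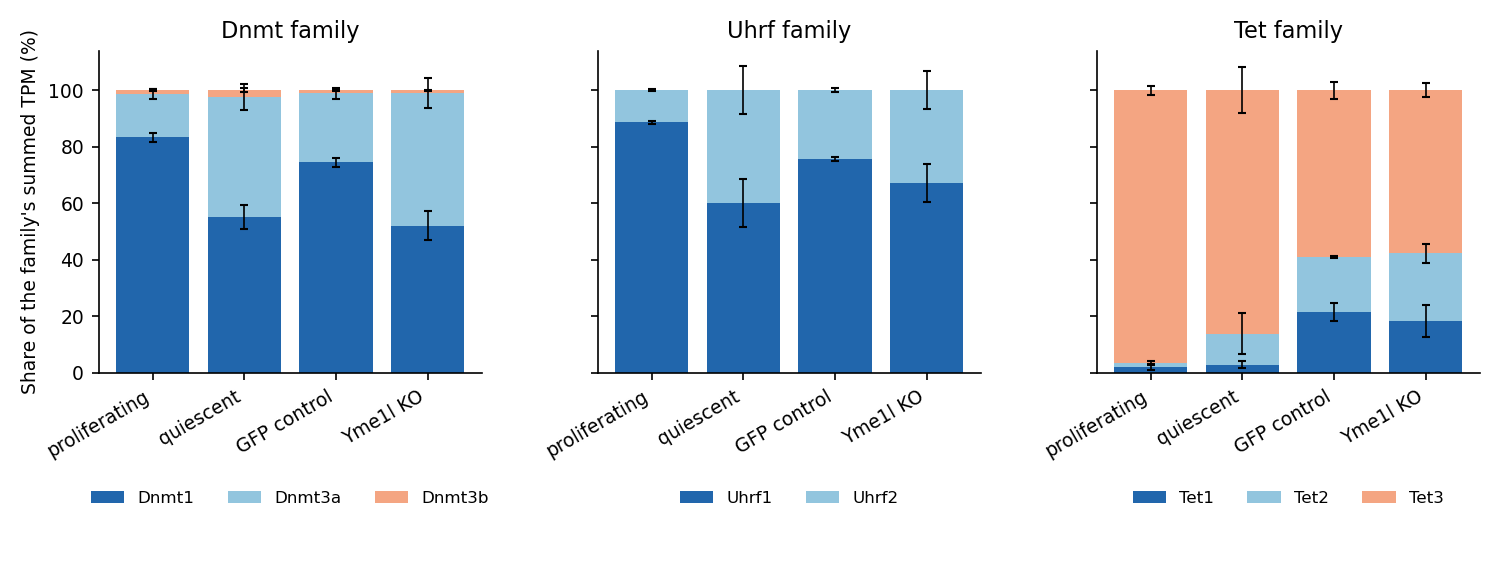
Mean share (%) of each paralogue in the summed TPM of the Dnmt, Uhrf and Tet families in the 4 groups, as stacked bars with error bars of 1 SD over libraries. The Dnmt3a segment is 15.3% in proliferating against 42.6% in quiescent bars and 24.4% in GFP control against 46.9% in KO bars.

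Transcripts were compared as shares of the gene's estimated transcript counts, in 21 exact permutation tests for quiescence and 19 for the KO. None passed after adjustment, and the designs allow a smallest p of 0.0286 and 0.1. At an unadjusted p under 0.05 there were 3 transcripts, all in quiescence. Uhrf1-201, which starts at the upstream promoter, made up 52.5% ± 7.92 (SD, n = 4) of Uhrf1 in proliferating and 18.6% ± 17.4 in quiescent cells (two-sided exact permutation p = 0.0286, adjusted p = 0.2). Uhrf1-204, which starts 1027 bases downstream, next to the promoter printed above, made up 32.3% ± 6.18 in proliferating and 58.4% ± 2.26 in quiescent cells (exact permutation p = 0.0286, adjusted p = 0.2). Both encode 782 residues and differ in the first exon, so that few reads tell them apart, at 107 to 179 counts per quiescent library. Summed by start, a grouping made after the values were seen, transcripts of the upstream start made up 58.4% to 75.4% in proliferating and 10.5% to 40.4% in quiescent libraries. In the GFP control they made up 70.5% to 82.5% and in the KO 67.2% to 87.4%, ranges that overlapped.

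Tet3-203, which encodes the 1803-residue form and starts upstream of Tet3-202, made up 12.9% ± 1.98 of Tet3 in proliferating and 7.98% ± 1.53 in quiescent cells (exact permutation p = 0.0286, adjusted p = 0.2). Of Dnmt1, the 1620-residue form Dnmt1-201 took 63.6% ± 3.78 in proliferating, 61.7% ± 23.5 in quiescent, 70.1% ± 3.53 in GFP control and 66.7% ± 1.34 in KO cells. Dnmt1-202, with an upstream first exon of the kind known from oocytes and 1501 residues, took 28.1% to 34.0% on average in the 4 groups. Among quiescent libraries it ran from 0% in replicate 1 to 47.6% in replicate 2, and the estimate rests on the reads of that exon. Dnmt3a was nearly all long form: transcripts of 908 residues made up 97.7% to 99.1% on average, and those of the 689-residue short form 0% to 1.37%. Transcript shares of Dnmt3b, and of Tet1 and Tet2 in the quiescence table, rest on few counts and moved between 0% and 100% among libraries of a group.

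Genes that work with these enzymes were read from lists, given by counts and medians beside the median of all genes tested (-0.01 for quiescence and 0.00 for the KO on the log2 scale). Of all genes tested, 29.9% were called higher and 35.5% lower in quiescence, and 25.4% higher and 26.2% lower in the KO. List counts near these shares do not set a list apart from all genes. Partners of maintenance and de novo methylation fell in 12 of 17 tested cases with quiescence and rose in 1 (median -1.06), and fell in 12 of 19 in the KO (median -0.59). In quiescence Pclaf, the PCNA-associated factor (-3.02, SE 0.12), the replicative ligase Lig1 (-2.76, SE 0.07) and Cdca7, a partner of the remodeller HELLS (-2.56, SE 0.10), fell most, and the heterochromatin protein gene Cbx5 rose (0.83, SE 0.24), a call lost without proliferating replicate 2 or 5. In the KO the H3K9 methyltransferase gene Suv39h2 (-1.26, SE 0.14), Pclaf (-1.22, SE 0.20) and Lig1 (-1.19, SE 0.14) fell most. The DNA replication genes moved with Uhrf1 and Dnmt1: 28 of 29 fell with quiescence (median -2.83) and 30 of 30 in the KO (median -0.97). Their summed level was 251 to 283 TPM in quiescent, 1687 to 1781 in proliferating, 2060 to 2117 in GFP control and 809 to 1191 in KO libraries, and the part of cell cycle state in the falls of Uhrf1 and Dnmt1 was not tested.

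The reader list held other genes of the methyl-CpG-binding-domain family and zinc finger genes. Mbd5 and Mbd6 are in it by family, not by a known binding of methylated CpG. Of its genes, 5 of 9 were called higher, 1 lower and 3 not at all in quiescence (median 0.43). In the KO 5 of 9 were called higher and 4 not at all (median 0.20). The zinc finger readers Zbtb4 (0.98, SE 0.07) and Zbtb38 (1.27, SE 0.38) rose in quiescence, and Zbtb4 (0.84, SE 0.10) and Zbtb38 (0.60, SE 0.11) rose in the KO. Mbd5 rose in quiescence (0.92, SE 0.26), while Mbd6 fell there (-0.69, SE 0.10) and rose in the KO (0.37, SE 0.08). NuRD subunits other than Mbd3 fell in 9 of 16 cases and rose in 4 with quiescence (median -0.36), and fell in 8 and rose in 3 in the KO (median -0.11). Mta1 fell (-1.05, SE 0.05) and Mta3 rose (1.17, SE 0.08) in quiescence, and the remodeller Chd3 fell there (-1.02, SE 0.13) but rose in the KO (0.76, SE 0.10).

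Of CXXC proteins, which bind unmethylated CpG, 4 of 8 fell and 1 rose in quiescence (median -0.35). Cxxc5 rose by 2.14 (SE 0.05) and Kdm2b fell (-0.98, SE 0.06). In the KO 1 rose and 2 fell (median -0.07), Kmt2a (0.22, SE 0.05) on one side and Fbxl19 (-0.27, SE 0.10) and Cxxc1 (-0.18, SE 0.07) on the other. Both falls in the KO were lost by DESeq2 and without GFP control replicate 2 or 3 or KO replicate 3.

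Genes for repair of oxidised methylcytosine fell in 10 of 15 cases and rose in 1 with quiescence (median -0.46), and fell in 8 and rose in 3 in the KO (median -0.40). The uracil glycosylase Ung (-3.85, SE 0.16), the glycosylase Neil3 (-3.004, SE 0.34) and the scaffold Xrcc1 (-1.32, SE 0.07) fell most in quiescence, and Gadd45b, linked to active demethylation and stress, rose (3.84, SE 0.10). The count of rises there was 2 without quiescent replicate 2 and 3 without replicate 4. In the KO Ung (-1.16, SE 0.13), Neil3 (-1.01, SE 0.13) and the endonuclease Apex1 (-0.91, SE 0.09) fell most, while Gadd45b (1.42, SE 0.38) and Gadd45a (0.78, SE 0.10) rose.

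Genes of TET cofactor supply and modification fell in 6 of 13 cases in quiescence and none rose (median -0.14), led by Idh2, the mitochondrial isocitrate dehydrogenase that yields 2-oxoglutarate (-1.51, SE 0.06). The count of 6 was 3 without quiescent replicate 1 or 2 and 2 without replicate 3 or 4. In the KO 4 of 12 rose and 2 fell, or 1 without GFP control replicate 3 (median 0.05). Ogt, the GlcNAc transferase that binds TET proteins, rose (0.60, SE 0.07) and Idh1 fell (-0.36, SE 0.05).

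The methyl donor cycle split in both comparisons, with 4 of 12 higher and 3 lower (5 without proliferating replicate 1) in quiescence (median -0.07) and 3 of 12 higher and 6 lower in the KO (median -0.08). Methionine synthase reductase Mtrr (-1.05, SE 0.14) and S-adenosylhomocysteine hydrolase Ahcy (-0.74, SE 0.06) fell in quiescence, and Ahcy (-0.82, SE 0.08) and Mtrr (-0.61, SE 0.11) fell in the KO. Methionine synthase Mtr rose in quiescence (0.66, SE 0.13) and fell in the KO (-0.33, SE 0.08), and the cystathionine synthase Cbs rose in quiescence (0.49, SE 0.08) and in the KO (0.82, SE 0.12).

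Imprinted genes, whose parental alleles are marked by methylation, rose in 13 of 29 cases and fell in 6 with quiescence (median 0.33). In the KO 9 of 31 rose and 7 fell (median -0.03), near the 25.4% and 26.2% of all genes called higher and lower. Peg12 (-2.001, SE 0.09) and Peg10 (-1.32, SE 0.10) fell and Zrsr1 (1.58, SE 0.31) and Nap1l5 (1.27, SE 0.26) rose in quiescence. Mest fell in quiescence (-1.12, SE 0.05) and in the KO (-0.79, SE 0.07), where Blcap rose (0.67, SE 0.07). Of 31 germline genes that promoter methylation silences, 9 had a count in quiescent, 11 in proliferating, 13 in GFP control and 13 in KO libraries. The cohesin subunit gene Stag3 fell in quiescence (-1.06, SE 0.12) and in the KO (-0.55, SE 0.11), and the bromodomain gene Brdt rose in quiescence (1.02, SE 0.28). No methylation was measured in these samples.

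Genes whose pattern was most like each member were ranked by Pearson's r of log2 CPM over the 14 libraries, after each table was centred on its groups. These values are a description, and the points share libraries and group differences. Uhrf1 was most like the helicase subunit gene Mcm5 and the centromere histone gene Cenpa (both r = 0.999) and thymidine kinase Tk1 (r = 0.998). Dnmt1 was most like Wdr5, Nop56 and Pbk (each r = 0.998), and Uhrf1 and Dnmt1 themselves stood at r = 0.992. Dnmt3a was most like Rbl2, a retinoblastoma-family pocket protein gene (r = 0.962), Ank3 and Crot (both r = 0.961), and Tet3 was most like Adam19 (r = 0.996), Crispld2 and Srf (both r = 0.994). Mbd3 was most like Eif6 (r = 0.994), Tet2 like Chd2 (r = 0.982), Uhrf2 like Tardbp (r = 0.963), Tet1 like Pds5b (r = 0.946) and Dnmt3b like Mrfap1 (r = 0.936).

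Levels were set side by side across the tables without a test, since the tables were quantified separately and no library is in both. The GFP control and the proliferating group both grew in FGF and EGF, and 8 of the 9 genes had a higher mean TPM in the GFP control. The ratio was 33.2 for Tet2 and 27.0 for Tet1, 3.18 for Uhrf2 and 2.56 for Dnmt3a, 1.26 to 1.49 for Dnmt1, Uhrf1, Dnmt3b and Tet3, and 0.612 for Mbd3. Tet1 and Tet2, with 43.7% and 45.4%, had the lowest GC content of the 9, and Mbd3, with 62.9%, the highest. Across 11464 genes the log2 ratio had a median of -0.03. It correlated with GC content at r = -0.681 and with log2 transcript length at r = 0.328. Tet1 had the longest transcript of the 9 (14369 bases) and Mbd3 the shortest (1662), while Tet2 (9179) was shorter than Tet3 and Dnmt3a. The parts of GC content and length in the low Tet1 and Tet2 levels of the quiescence table were not tested.

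**Figure D4:**
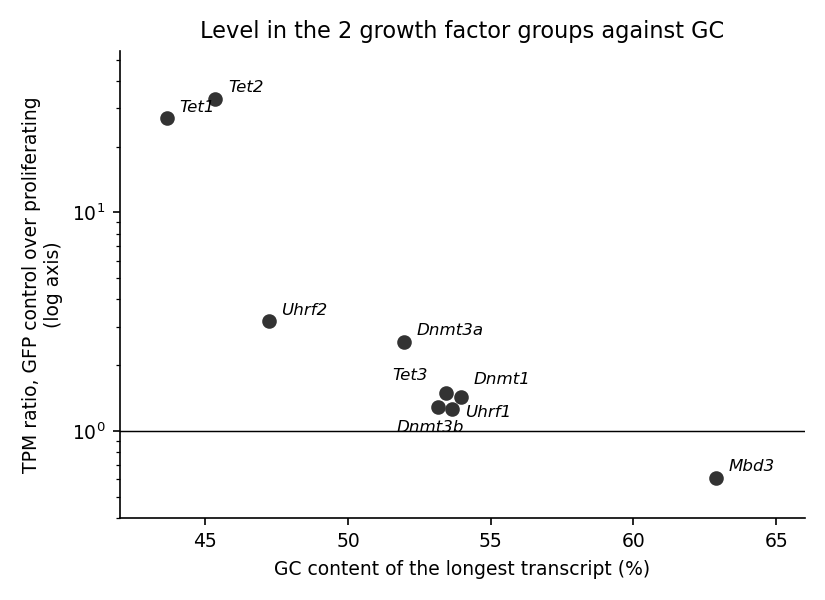
Ratio of mean TPM in the GFP control to mean TPM in the proliferating group (log axis) against GC content of the longest transcript (%), with 1 point per gene for the 9 genes. Tet1 and Tet2 stand at ratios of 27.0 and 33.2 at the lowest GC contents, and Mbd3 at 0.612 at the highest.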

How the data were processed

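The authors deposited salmon tables for each pair of groups, and the submitters' processing notes name GRCm39, DESeq2 1.30.1 and R 4.0.3. The aligner settings and the annotation release are not given in the sources used here. Estimated counts per gene and per transcript, as deposited, were rounded to whole numbers for the gene tests. TPM values, deposited by the authors, gave levels per length and the family shares. The authors' deposited table gave their log2 fold changes and adjusted p-values, which are quoted by name only. The libraries are poly-A selected and stranded, per the labels' protocols. Table columns were matched to samples through the sample IDs of the deposited sheet, so that the third and the fourth proliferating columns are replicates 4 and 5.

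Each table was tested in edgeR 4.0.16 (R 4.3.3) with TMM scaling, filterByExpr by group, a robust quasi-likelihood fit and Benjamini-Hochberg adjustment over all genes tested, and called at 0.05. CPM are counts over the TMM-scaled library size. The contrast of the 2 effects was fitted over all 14 libraries. The test was run on simulated counts first. Alternatives used RLE factors, library size alone, DESeq2 1.42.0, limma 3.58.1 on log2(TPM + 1), other filters, counts scaled from TPM by the authors, removal of GC trends, a replicate block and leaving out each library. Transcripts with a mean share of at least 10% were compared by exact permutation. Named genes are the 9 members, up to 3 called genes per direction and list at a mean of 1 CPM or more, any tested gene of lists with 8 or fewer, the 3 genes most like each member among those at 5 CPM or more, and Yme1l1. The members, lists and rules were chosen with earlier results of these data known. Intervals of depth cover counting error only, as reads carry no molecular identifiers. Promoter sequences are RefSeq's on GRCm38.p6 and transcript models GENCODE's on GRCm38, and no coordinates were moved between builds.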

Additional observations from a re-analysis of the deposited data

Results flagged for a closer look

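In 5 genes the KO effect differed from the quiescence effect in the test of the difference itself. The differences on the log2 scale were 2.16 for Uhrf1, 1.29 for Tet3, 0.95 for Dnmt1, 0.25 for Dnmt3a and -1.43 for Tet2.

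Of 60 groups of 4 libraries read for a value far from the rest, 12 held one. The cutoff gives about 1 in 20 only for normally distributed values. A transcript share that is equal in all libraries but 1 passes it whatever its size, so the count of 12 cannot be set against chance. Yme1l1 stood at 11.1 CPM in quiescent replicate 2, above the other quiescent libraries. Uhrf1-203 made up 19.7% of Uhrf1 in quiescent replicate 3, while the other quiescent libraries were at 0%. The other 10 values are transcript shares of genes with few counts. Dnmt3b-201 stood at 51.8% in proliferating replicate 2, Dnmt3b-206 at 58.9% in proliferating replicate 1 and at 0% in quiescent replicate 4, and Dnmt3b-207 at 71.4% in quiescent replicate 4. Tet1-206 stood at 100% in proliferating replicate 1 and in quiescent replicate 2, where Tet1-201 stood at 0%. Tet2-201 stood at 79.8% in proliferating replicate 4 and at 91.7% in quiescent replicate 4, where Tet2-204 stood at 0%.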

How the results depend on the processing

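Over 20 or fewer alternatives per comparison, 437 of the values for single members kept direction and call, 35 lost the call, 3 gained it and 9 changed sign. Uhrf1 and Dnmt1 were called in all 3 comparisons under every alternative run, as were Tet3, Mbd3 and Uhrf2 in quiescence and Dnmt3a, Mbd3 and Uhrf2 in the KO. Library size alone gave 2823 higher and 5219 lower genes in quiescence, against 3664 and 4346, with the median gene at -0.15. For the contrast of effects it gave 4173 higher and 1732 lower, and RLE factors 2229 and 3094, against 2848 and 2441. Members called higher in quiescence numbered 1 with library size alone, 0 with limma, 0 with counts scaled from TPM and 0 with the replicate block, and 1 to 2 when a library was left out (1 without proliferating replicate 5). With counts scaled from TPM, Tet1 and Tet2 did not pass the filter in quiescence and were not tested. In the KO 1 member was higher with limma, 1 with all 14 libraries in one fit and 1 with scaled counts. In the contrast 0 members were lower without a filter, 0 with scaled counts and 0 with the replicate block. Tet1 in quiescence turned to -0.069 with library size alone, -0.16 with limma and -0.094 with the GC trend removed, and ran from -0.27 (without quiescent replicate 2) to 0.46 when a library was left out, below 0 also without proliferating replicate 2 or 5. Tet3 in the KO ran from -0.065 to 0.0064 (the latter without GFP control replicate 3), and in the contrast scaled counts gave -0.064 for Dnmt3b and 0.26 for Tet1. Same-numbered libraries did not deviate together (correlations -0.346 to 0.002). That cannot exclude a pairing, as deviations over all genes also followed GC content in some libraries. Among the lists, TET cofactor genes lower in quiescence numbered 3 in place of 6 with RLE factors, DESeq2, limma, scaled counts and the block, and 1 to 2 rose in place of 0 in the 14-library fit and with the GC trend removed. Methyl donor genes lower in quiescence numbered 6 with library size alone and 5 with the GC trend removed in place of 3, and 2 in place of 4 were higher with limma and scaled counts. Genes of the reader list called higher numbered 3 in place of 5 in quiescence with the block, and in the KO with limma, the 14-library fit and scaled counts. NuRD genes higher in the KO numbered 1 in place of 3 with limma and scaled counts. Other list counts that moved were 3 or fewer. The cause of these changes was not tested. Counts of 5 to 74 per library limit the precision for Dnmt3b in both tables, and Tet1 and Tet2 in quiescence.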
